A study of Mus musculus with 4 samples.

Results

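A set of 8 monocyte-related genes was followed across 4 arrays of splenic Esam dendritic cells (DC), namely Treml4, Lyz1, Lyz2, S100a4, S100a6, Lst1, Fn1 and Spn. A gene was a member if a probe set of the deposited table carried its symbol and no other, and where a gene has several such probe sets the brightest over the 4 arrays stands for it. Each of the 8 genes had exactly 1 probe set, out of 19938 genes with a single-symbol probe set. The cKO mice (n = 2, genotype DCRunx3 -/- in the labels) carried Runx3fl/fl and a Cre transgene under the CD11c promoter, so that deletion is directed to CD11c-expressing cells. The wt mice (n = 2, DCRunx3 +/+) were their littermate controls, whose floxed and Cre alleles the labels do not state. All 4 mice were 6 weeks old, with no treatment named in the labels, and 2 littermate pairs each gave 1 cKO and 1 wt mouse. Cells were sorted on CD11c, MHC class II, Esam, CD4 and CD8, and 1 array was hybridised per mouse. The comparison asks how loss of Runx3 in DC bears on these genes in Esam DC.

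Conventional DC of the spleen that carry CD11b are divided by surface Esam, and the Esam-low cells share much of their expression program with monocytes. Mouse monocytes circulate as classical cells, which are drawn to inflamed tissue through the receptor encoded by Ccr2, and as nonclassical cells, which patrol vessels and carry the sialomucin CD43, the product of Spn. Runx3 is a transcription factor of the Runt family, which binds a short DNA motif and can activate or repress its targets. Treml4 encodes an immunoglobulin-type receptor that binds dying cells, Lyz1 and Lyz2 encode lysozymes, which cut bacterial cell walls, S100a4 and S100a6 encode small calcium-binding EF-hand proteins, Lst1 encodes a small leukocyte membrane protein and Fn1 encodes the matrix protein fibronectin.

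All levels are log2 values after robust multichip averaging (RMA), and each difference is the cKO mean less the wt mean in these log2 units. Errors of group means are SD with n = 2, and SE and 95% confidence intervals (CI) of differences are those of limma, which was fitted on 18889 probe sets that reached a log2 value of 6.5 on at least 1 array. On the arrays as a whole, medians lay between 6.58 and 6.62, and the median absolute difference between arrays of 1 genotype was 0.0962 for cKO and 0.163 for wt. Runx3 itself was at 11.47 and 11.45 in cKO and at 11.37 and 11.51 in wt (limma, adjusted p = 0.973), and no source used here says whether its probe set reads the deleted part. The labels call all 4 mice male, but Xist, the RNA of the inactive X chromosome, differed between litters. It was at 12.78 in cKO and 12.75 in wt of litter 1 and at 5.19 in cKO and 5.15 in wt of litter 2. Kdm5d, a gene of the Y chromosome, was at 5.19 in cKO and 5.27 in wt of litter 1. In litter 2 it was at 9.89 in cKO and 9.84 in wt. A step between litters thus cannot be told apart from one between the sexes. Each member difference is therefore also given within its litter. All 16 listed genes of cDC2 and Esam DC were at 6.5 or above, with a mean level of 11.91 and 11.93 in cKO and 11.87 and 11.86 in wt. The list covers the sort markers CD11c, MHC class II, Esam and CD4, but not CD8. Cd8a, named after its values had been seen, was at 10.63 and 10.88 in cKO and at 9.49 and 9.08 in wt. That is a difference of 1.46 (SE 0.18, limma, adjusted p = 0.210), and it passed the study's thresholds. The population was sorted as Esam DC, not as Esam-low DC, so the members are read here as monocyte-related genes within Esam DC.

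The 250 bases before the RefSeq start (build GRCm38.p6) of 4 members are shown because the 2 S100 neighbours and the 2 lysozyme neighbours differ within each pair in the match to the RUNX motif. Matches to TGTGGT or its reverse complement ACCACA are in capitals, and each sequence reads 5′ to 3′ on the strand of its gene. S100a6 lies at chr3:90612644-90612893 on the plus strand, S100a4 at chr3:90603520-90603769 on the plus strand, Lyz2 at chr10:117282273-117282522 on the minus strand and Lyz1 at chr10:117292869-117293118 on the minus strand.
S100a6: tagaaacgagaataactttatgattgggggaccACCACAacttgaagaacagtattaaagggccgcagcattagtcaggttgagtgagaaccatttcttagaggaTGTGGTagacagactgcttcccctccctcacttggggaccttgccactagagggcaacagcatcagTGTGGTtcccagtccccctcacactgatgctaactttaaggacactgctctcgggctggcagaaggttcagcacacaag
S100a4: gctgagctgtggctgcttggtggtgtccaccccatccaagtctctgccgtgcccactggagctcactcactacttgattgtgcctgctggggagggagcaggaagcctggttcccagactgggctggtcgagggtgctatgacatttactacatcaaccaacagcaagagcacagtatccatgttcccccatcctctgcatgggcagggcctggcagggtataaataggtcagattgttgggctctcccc
Lyz2: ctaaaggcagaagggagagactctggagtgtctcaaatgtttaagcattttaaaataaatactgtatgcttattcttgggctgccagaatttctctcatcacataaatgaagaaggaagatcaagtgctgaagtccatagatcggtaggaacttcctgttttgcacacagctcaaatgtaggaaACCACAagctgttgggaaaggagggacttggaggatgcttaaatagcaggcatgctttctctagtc
Lyz1: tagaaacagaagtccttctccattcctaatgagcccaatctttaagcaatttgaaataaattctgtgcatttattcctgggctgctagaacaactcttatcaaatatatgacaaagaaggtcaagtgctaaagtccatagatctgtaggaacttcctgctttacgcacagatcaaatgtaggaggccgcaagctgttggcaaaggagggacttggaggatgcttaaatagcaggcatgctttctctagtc

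The S100a6 window held 3 matches, beginning 217, 145 and 79 bases before the start, and the S100a4 window held 0. Among all 32851 promoters of this length in the RefSeq table, 14% held at least 1 match and 0.113% at least 3. The Lyz2 window held 1 match, 66 to 61 bases before the start, and the Lyz1 window held 0. Aligned over 252 columns, the Lyz2 and Lyz1 windows were identical in 200 (79.4%), with 48 substitutions and 4 gap columns, and within the Lyz2 match Lyz1 differed by A185G and A188G, counted from 1 at the 5′ end of the Lyz2 window with the Lyz2 base first. Of the other members with a RefSeq window, Treml4 (chr17:48264045-48264294, plus strand) and Spn (chr7:127137824-127138073, minus strand) held 0 RUNX matches. Treml4 held 2 matches to the Ets motif GAGGAA or TTCCTC, which PU.1 can bind, beginning 178 and 87 bases before the start, against 3.54% of all promoters with at least 2. In all, 2 of 6 members held a RUNX match, against 14% of all promoters, and 1 of 6 an Ets match, against 23.3% of all promoters, and a match describes these letters in this window, not a bound site.

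**Figure D1:**
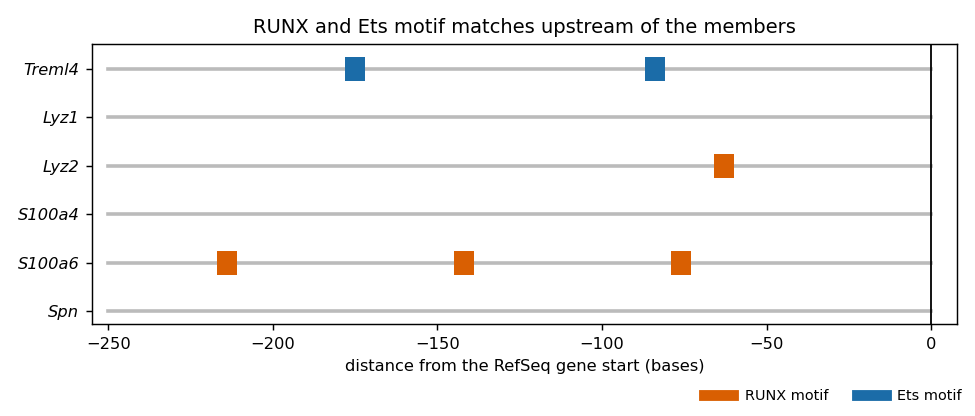
Positions of RUNX and Ets motif matches in the 250 bases before the RefSeq start of 6 members, with distance from the start in bases on the horizontal axis and 1 row per gene. S100a6 has 3 RUNX matches and Lyz2 has 1, while Treml4 has 2 Ets matches and the other rows are empty.

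Among the members, S100a6 differed most, and it was lower in cKO. Treml4 and Lyz2 were each higher in cKO by a difference of 0.70 or more, Spn was higher by a smaller amount, and Lyz1, Lst1 and S100a4 differed by less than 1.5-fold with intervals that include 0. Fn1 was under 6.5 on all 4 arrays and was not tested. None of the 7 tested members passed limma at an adjusted p of 0.05, as was the case for 0% of the 18889 probe sets, and the smallest adjusted p was 0.163 among members and 0.0834 among all probe sets. At an unadjusted p under 0.05 limma took 4 of 7 members, 3 higher (Treml4, Lyz2 and Spn) and 1 lower (S100a6), against 9.38% of all probe sets (4.57% higher and 4.81% lower). The study's thresholds, a fold of at least 1.5 with a one-way p of at most 0.05, were passed by 2 of 7, Treml4 as the higher and S100a6 as the lower one, against 1.41% of all probe sets (0.9% higher and 0.514% lower), and by 0 when any 1 array was left out. With 2 mice a group, an exact two-sided permutation test of a single gene cannot go below p = 0.333.

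**Figure D2:**
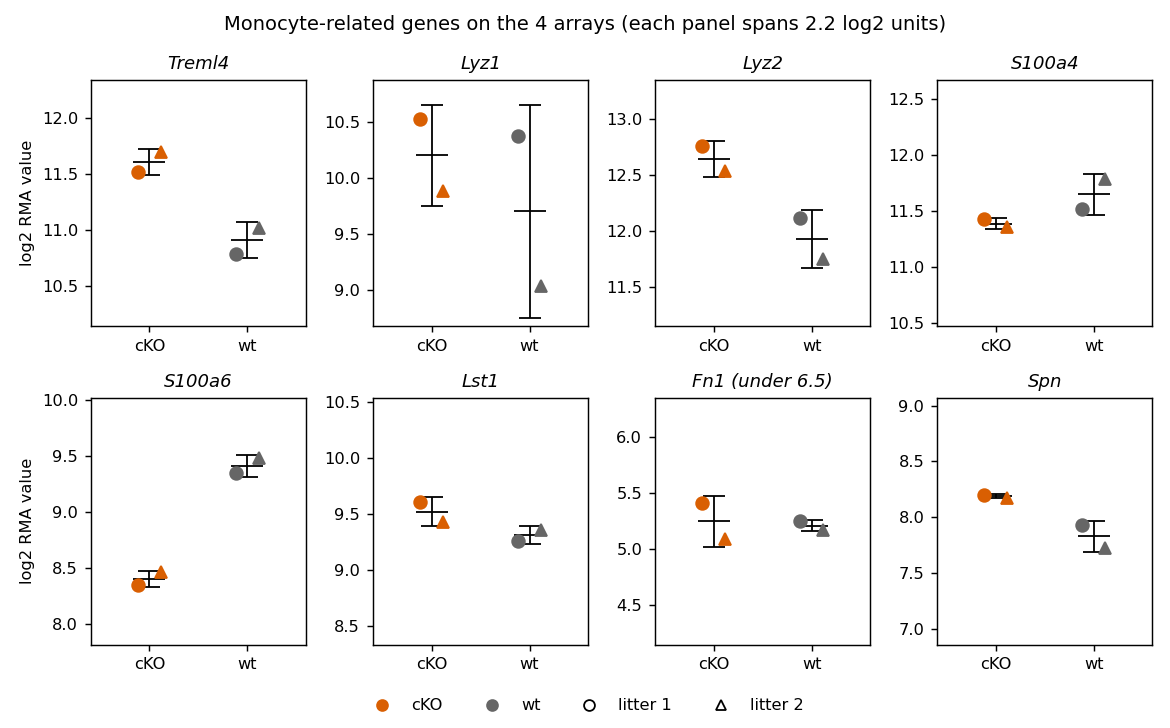
Log2 RMA value of each of the 8 members on each array, with cKO points left of wt points, circles for litter 1, triangles for litter 2, and black bars for the group mean ± SD (n = 2 each). Both cKO values lie above both wt values for Treml4, Lyz2, Lst1 and Spn, below them for S100a4 and S100a6, and among them for Lyz1 and Fn1.

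S100a6, the partner of annexins in calcium-dependent membrane contacts, was at 8.35 and 8.46 in cKO and at 9.35 and 9.48 in wt. Both cKO arrays lay below both wt arrays, and the gap between genotypes was several times the gap within either of them. The mean was 8.40 ± 0.07 in cKO and 9.41 ± 0.10 in wt (SD, n = 2 each). The difference was -1.01 (SE 0.10, 95% CI -1.28 to -0.74), a level 2.01-fold higher in wt (limma, adjusted p = 0.163). It was -0.99 in litter 1 and -1.02 in litter 2. Only 30 of the 18889 probe sets had a lower difference. With limma fitted anew on 1 probe set per gene (9894 genes), S100a6 passed at an adjusted p of 0.0382, beside 0.424% of those genes. Its unadjusted limma p was also smaller there, 0.0001389 against 0.0004209 in the main fit.

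S100a4, the gene next but one to S100a6 on chromosome 3 with S100a5 between them, has served as a marker of motile cells through its contact with myosin. It was at 11.43 and 11.36 in cKO and at 11.52 and 11.79 in wt. The groups did not overlap, but the nearest arrays of the genotypes, cKO-1 and wt-1, were only a litter difference of -0.10 apart, against -0.43 in litter 2. The difference was -0.26 (SE 0.12, 95% CI -0.60 to 0.07, limma, adjusted p = 0.627). Both S100 members thus had lower values in cKO, but the interval of S100a6 excludes 0 while that of S100a4 includes it.

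Of the other S100 and annexin genes, 10 of the 18 with a probe set, counted with the members, were under 6.5 on all arrays. Among 6 tested genes besides the members, 5 were lower and 1 was higher in cKO, with a median difference of -0.06, against -0.02 over all probe sets tested, and 0 passed the study's thresholds. S100a10, which forms a tetramer with annexin A2, was at 10.18 and 10.34 in cKO and at 10.61 and 10.90 in wt, a difference of -0.50 (SE 0.14, limma, adjusted p = 0.440). S100a11, another annexin partner, was at 13.20 and 13.24 in cKO and at 13.39 and 13.43 in wt, a difference of -0.19 (SE 0.08). Annexin A2 itself (Anxa2) differed by -0.09 (SE 0.08). The gene in the opposite direction was S100a1, at 8.09 and 8.17 in cKO and at 7.71 and 7.33 in wt, a difference of 0.61 (SE 0.16, limma, adjusted p = 0.408). The S100 genes of the array therefore did not share 1 direction.

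Treml4 was at 11.52 and 11.70 in cKO and at 10.79 and 11.02 in wt. Both cKO arrays were above both wt arrays, and litter 2 was above litter 1 in each genotype by about the same step. The mean was 11.61 ± 0.12 in cKO and 10.91 ± 0.16 in wt (SD, n = 2 each). The difference was 0.70 (SE 0.13, 95% CI 0.36 to 1.05), or 1.63-fold (limma, adjusted p = 0.282). It was 0.73 in litter 1 and 0.68 in litter 2, and 259 of the 18889 probe sets had a higher difference.

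Treml4 sits in a cluster of receptor genes on chromosome 17, between Trem3 and Treml2. Treml2, an activating receptor of B cells and myeloid cells, was at 7.19 and 6.92 in cKO and at 6.63 and 6.39 in wt, a difference of 0.54 (SE 0.15, limma, adjusted p = 0.430). Trem1, an amplifier of inflammatory signals in neutrophils and monocytes that lies on the other side of Trem3, was at 6.35 and 6.63 in cKO and at 6.98 and 7.21 in wt, a difference of -0.61 (SE 0.15, limma, adjusted p = 0.392). The receptors of the cluster thus differed in both directions, since Trem3 was at 8.17 and 8.29 in cKO and at 8.49 and 8.29 in wt, a difference of -0.16 with groups that touched. Among the adaptors that carry their signals, Hcst differed by -0.28 (SE 0.10), Tyrobp by 0.07 (SE 0.09) and the kinase gene Syk by 0.03 (SE 0.09). Of these 6 tested genes besides Treml4, 3 were higher and 3 lower, and 0 passed the study's thresholds.

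Lyz2, the lysozyme of macrophages and other myeloid cells, was at 12.76 and 12.54 in cKO and at 12.12 and 11.75 in wt. Both cKO arrays were above both wt arrays, and here litter 1 was the higher litter in each genotype. The mean was 12.65 ± 0.16 in cKO and 11.93 ± 0.26 in wt (SD, n = 2 each). The difference was 0.72 (SE 0.17, 95% CI 0.26 to 1.18), or 1.64-fold (limma, adjusted p = 0.377). It was 0.64 in litter 1 and 0.79 in litter 2. Lyz2 passed the fold but not the p of the study's thresholds.

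Lyz1, the neighbouring copy on chromosome 10 that is best known from Paneth cells of the gut, was at 10.52 and 9.88 in cKO and at 10.37 and 9.03 in wt. The groups overlapped, since wt-1 was above cKO-2, and the arrays were ordered by litter before genotype. The step from litter 1 to litter 2 was -0.63 in cKO and -1.34 in wt. The genotype difference was 0.50 (SE 0.52, 95% CI -0.91 to 1.91, limma, adjusted p = 0.837; SE 0.21 and adjusted p = 0.532 with litter as a block), with 0.15 in litter 1 and 0.86 in litter 2. Without wt-2 the pooled Lyz1 difference was -0.17. That fit sets cKO arrays of both litters against wt-1 alone, so the step between litters enters it. Lyz1 and Lyz2 are near-identical genes, and how far either probe set reads the transcript of the other was not tested. The 7 other lysozyme-family genes with a probe set were at most 5.45 and under 6.5 on all arrays. On the far side of Lyz1, Cpsf6 differed by -0.02 (SE 0.08). This neighbour was named for its place next to the pair, after its values had been seen.

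**Figure D3:**
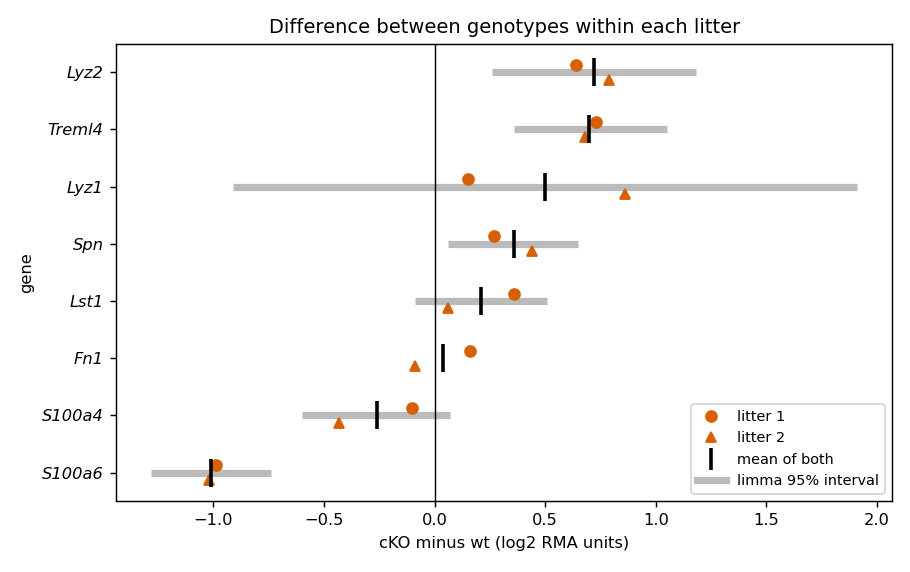
Difference of cKO minus wt within litter 1 and within litter 2 for the 8 members, in log2 RMA units, with 1 row per gene, a black bar for the mean of both litters and a grey bar for the limma 95% interval of the 7 tested members. S100a6 stays near -1 and Treml4 and Lyz2 stay between 0.64 and 0.79 in both litters, whereas Lyz1 is at 0.15 and 0.86.

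Spn was at 8.20 and 8.17 in cKO and at 7.93 and 7.73 in wt, with both cKO arrays above both wt arrays. The mean was 8.19 ± 0.02 in cKO and 7.83 ± 0.14 in wt (SD, n = 2 each). The difference was 0.36 (SE 0.11, 95% CI 0.06 to 0.65), or 1.28-fold (limma, adjusted p = 0.464), and it was 0.27 in litter 1 and 0.44 in litter 2. The size is below the 1.5-fold of the study's thresholds.

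Of the partners of CD43, 7 reached 6.5 in both genotypes, 4 of them higher and 3 lower in cKO, with a median difference of 0.01, and 0 passed the study's thresholds. Siglec1, a macrophage receptor for sialic acids that binds CD43, was at 6.54 and 6.70 in cKO and at 6.15 and 5.93 in wt, and is not counted because it reached the minimum through its cKO arrays alone. The linkers that tie CD43 to the actin cortex were on the lower side. Ezrin (Ezr) was at 11.07 and 10.96 in cKO and at 11.42 and 11.28 in wt, a difference of -0.33 (SE 0.10, limma, adjusted p = 0.473), moesin (Msn) differed by -0.12 (SE 0.09) and radixin (Rdx) by -0.06 (SE 0.08). The mucin gene Selplg differed by 0.11 and Cd44 by 0.13 (SE 0.09 each).

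Lst1 was at 9.61 and 9.43 in cKO and at 9.26 and 9.36 in wt. The groups did not overlap, but cKO-2 and wt-2 were only 0.06 apart, against 0.36 in litter 1. The difference was 0.21 (SE 0.11, 95% CI -0.09 to 0.51, limma, adjusted p = 0.664). Its neighbours in the MHC class III region of chromosome 17 gave 1 higher and 5 lower among 6 tested. The higher one was Aif1, which encodes the actin-bundling protein Iba1 of macrophages and microglia and lies next to Lst1. Aif1 was at 8.51 and 8.53 in cKO and at 7.55 and 7.71 in wt, a difference of 0.89 (SE 0.10, limma, adjusted p = 0.202), or 1.85-fold, and it passed the study's thresholds. The 5 lower ones were within 0.23 of 0, with Tnf at -0.23 (SE 0.23), Bag6 at -0.09 (SE 0.09) and Prrc2a at -0.07 (SE 0.09).

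Fn1 was at 5.41 and 5.09 in cKO and at 5.25 and 5.17 in wt. Its groups overlapped, and the difference of 0.04 lay among values that the study's own minimum treats as background. The receptors and crosslinkers of fibronectin were measured all the same, with 6 of 9 tested genes higher and 3 lower, a median difference of 0.11, and 0 past the study's thresholds. The integrin gene Itgb3 was at 8.99 and 9.47 in cKO and at 8.32 and 8.72 in wt, a difference of 0.71 (SE 0.23, limma, adjusted p = 0.491). Itgb7, whose product pairs with the alpha 4 integrin, was at 9.56 and 9.68 in cKO and at 10.06 and 10.02 in wt, a difference of -0.42 (SE 0.09, limma, adjusted p = 0.349). The other integrin subunits were closer to 0, with Itgav at 0.29 (SE 0.12) and Itga4 at -0.04 (SE 0.09). The transglutaminase gene Tgm2 differed by -0.30 (SE 0.09) and the syndecan gene Sdc4 by 0.40 (SE 0.24).

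Considered as a set, 5 of the 7 tested members had a positive difference, against 44.9% of all probe sets. The genotypes did not overlap in 6 of 7, with 4 higher and 2 lower in cKO, against 40.1% of all probe sets (16.4% higher and 23.7% lower). The median difference was 0.36, against -0.02 over all probe sets tested, and the median absolute difference was 0.50, against 0.112. The members were chosen with earlier results of these data known. These shares, and those beside the counts of members above, therefore describe the set and do not test it. Leaving out cKO-1 moved the median of the members to 0.184, the lowest of the 4 fits with 1 array left out. In RNA from sorted cells, fewer cells of a type and less RNA per cell cannot be told apart, and the same holds for more cells and more RNA.

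**Figure D4:**
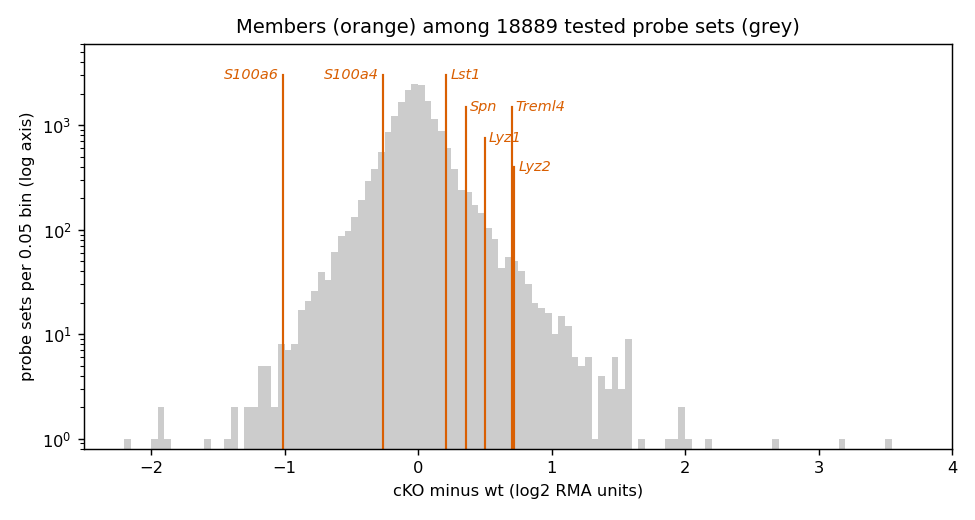
Histogram of cKO minus wt over the 18889 tested probe sets in log2 RMA units, with the number of probe sets on a log axis and the 7 tested members as labelled lines. S100a6 at -1.01 lies in the left tail, Treml4 at 0.70 and Lyz2 at 0.72 in the right tail, and the remaining members lie closer to the centre.

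Genes that mark nonclassical monocytes were mostly higher in cKO, while most classical monocyte genes were under the minimum. Of the 13 nonclassical genes tested besides Treml4 and Spn, 11 were higher and 2 lower, against 44.9% of all probe sets with a positive difference. Their median difference was 0.22, with a range of -0.09 to 2.03, and 2 passed the study's thresholds. The median was larger in the lists of cDC1 (1.18), red pulp macrophages (0.76), plasmacytoid DC (0.51) and B cells (0.43). It was smaller in those of cDC2 and Esam DC (0.03), neutrophils (0.13) and T cells (-0.18), the last 2 with 1 tested gene each. Higher values were thus not particular to nonclassical monocyte genes. Cd36, a scavenger receptor for lipids, was at 10.16 and 10.19 in cKO and at 8.86 and 8.52 in wt, a difference of 1.48 (SE 0.14, limma, adjusted p = 0.163), or 2.80-fold. Ace, the peptidase that makes angiotensin II, was at 10.21 and 10.83 in cKO and at 8.34 and 8.65 in wt, a difference of 2.03 (SE 0.25, limma, adjusted p = 0.209), or 4.08-fold. Adgre4, an adhesion receptor of myeloid cells, was at 11.45 and 11.76 in cKO and at 10.42 and 9.65 in wt, a difference of 1.57 (SE 0.30, limma, adjusted p = 0.296). These 3 differences were larger in size than that of any member. The 2 lower genes were Pglyrp1 at -0.09 (SE 0.09), which encodes a peptidoglycan-binding protein, and Dusp16 at -0.05 (SE 0.11), which encodes a MAP kinase phosphatase.

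Of the 16 classical monocyte genes with a probe set, 10 were at most 6.37 on every array. Besides the members, 2 genes reached 6.5 in both genotypes, and both had overlapping groups, with Plac8 at a difference of 0.19 (SE 0.15) and Ms4a4c at 0.02 (SE 0.14). Ccr2 was at 6.86 and 6.67 in cKO and at 6.18 and 6.03 in wt. It entered the test through its cKO arrays alone, with wt values that cannot be told from background, so its direction was set by the minimum and its size is not read here. The mean level over the classical list was 7.43 and 7.45 in cKO and 7.32 and 7.36 in wt. Over the nonclassical list it was 10.16 and 10.23 in cKO and 9.74 and 9.54 in wt.

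Transcription factors and growth factor receptors of the monocyte lineage gave 8 higher and 5 lower of 13 tested, and 2 passed the study's thresholds. Csf3r, the receptor for granulocyte colony-stimulating factor, was at 8.90 and 8.96 in cKO and at 7.60 and 7.70 in wt, a difference of 1.28 (SE 0.09, limma, adjusted p = 0.158). Irf8, a factor of monocytes and of DC of the cDC1 type, was at 11.32 and 11.38 in cKO and at 10.25 and 10.18 in wt, a difference of 1.13 (SE 0.09, limma, adjusted p = 0.158). Klf2 differed by 0.60 (SE 0.16). On the lower side, none of the 5 passed an unadjusted p of 0.05 in limma, with Spi1, which encodes PU.1, at -0.20 (SE 0.08), Irf4 at -0.26 (SE 0.12) and Klf4 at -0.09 (SE 0.14).

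**Figure D5:**
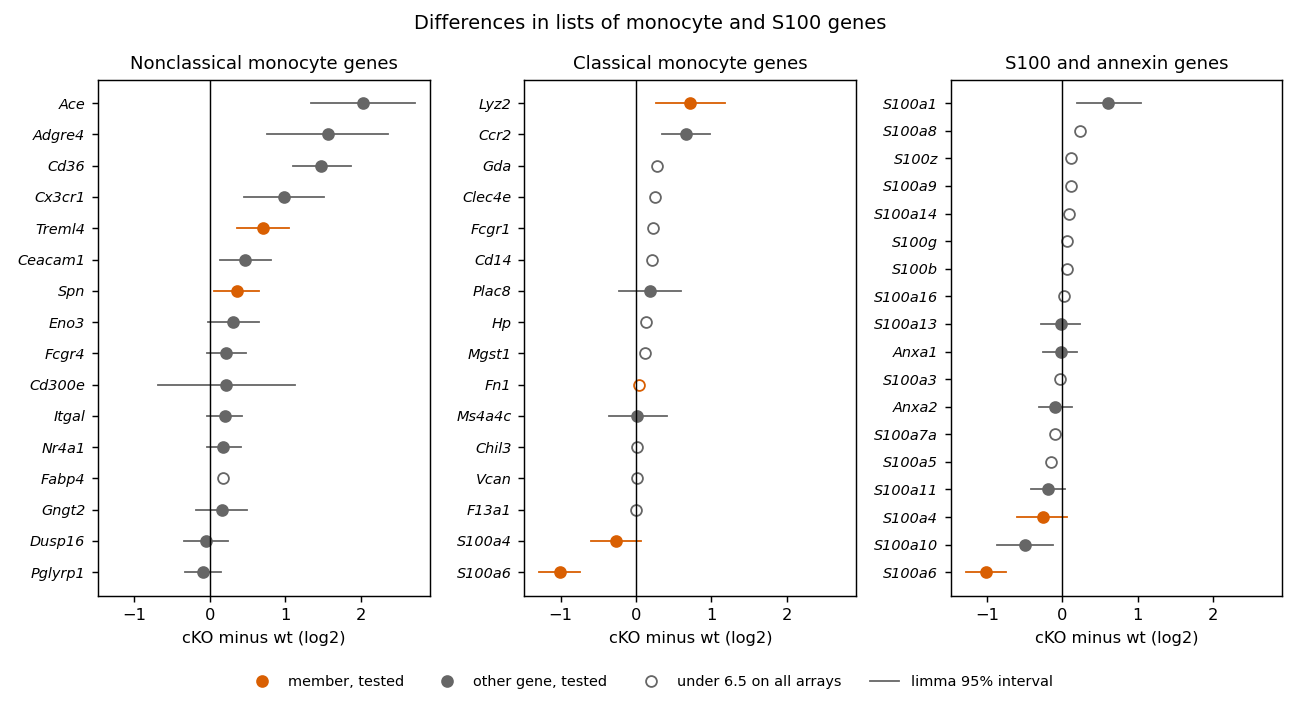
Difference of cKO minus wt in log2 units for the nonclassical monocyte, classical monocyte, and S100 and annexin lists, 1 row per gene, with members in orange, open points for genes under 6.5 on all arrays and lines for the limma 95% interval of tested genes. The nonclassical genes reach 2.03 with Ace, 10 of 16 classical genes are open points, and the S100 and annexin genes lie on both sides of 0 with S100a6 lowest, while Ccr2 reached 6.5 in cKO alone.

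Markers of other cells were measured as well, and their part in these results was not tested. The sort required CD11c and MHC class II, which neutrophils and T cells largely lack, and stained for CD8, which splenic cDC1 carry, but the labels do not say where the limits of the gate were set. All 11 tested genes of red pulp macrophages, which clear old red cells in the spleen, were higher in cKO, against 44.9% of all probe sets. Their median difference was 0.76, and 2 passed the study's thresholds (Spic at 0.73 and C1qb at 0.83). Hmox1 and Slc40a1, named after their values had been seen, had overlapping groups. The mean level over the red pulp macrophage list was 9.54 and 9.73 in cKO and 8.62 and 9.28 in wt, lowest in wt of litter 1. Of 8 cDC1 genes, among them Irf8 from the monocyte factors, 7 were higher, 1 was lower (Batf3 at -0.29) and 6 passed the study's thresholds, with a median difference of 1.18 and a mean level of 10.07 and 10.08 in cKO and 9.17 and 9.04 in wt. Of 6 plasmacytoid DC genes, 5 were higher, 1 was lower (Bst2 at -0.12) and 1 passed (Cox6a2, at 9.11 and 9.38 in cKO and at 6.36 and 6.77 in wt), and the mean level of the list was 8.23 and 8.37 in cKO and 7.49 and 7.56 in wt. All 3 tested B cell genes were higher and 0 passed, with a mean list level of 8.09 and 7.94 in cKO and 7.84 and 7.51 in wt. Of 13 neutrophil genes, S100a8 and S100a9 included, 12 were at most 5.99 on every array, and the exception, Mmp9, differed by 0.13 (SE 0.15). The T cell gene Cd5, the only one of its list tested, was lower, at -0.18 (SE 0.14). Of the endothelial genes that reached 6.5 in both genotypes, 1 was higher and 1 lower (Pecam1 at -0.03), and the NK cell list had 1 such gene, Klrk1, at 0.30 (SE 0.22). The erythroid and platelet lists had no gene at 6.5 or above.

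Genes whose profile over the 4 arrays was most like that of a member were found by the root mean square distance between centred log2 values, among 9893 candidates. For S100a6 the nearest gene was Ctnnd2, which encodes delta-catenin 2, at a distance of 0.0184, with 10.39 and 10.44 in cKO and 11.37 and 11.48 in wt, followed by the kinase gene Stk32c at 0.0510. For Treml4 it was Abca1, the exporter of cholesterol, at 0.0296, with 6.91 and 7.15 in cKO and 6.17 and 6.44 in wt, followed by the phospholipase D family gene Pld3 at 0.0357. For Lyz2 it was Pla2g7, which encodes an enzyme that degrades platelet-activating factor, at 0.0292, with 11.97 and 11.78 in cKO and 11.28 and 10.97 in wt, followed by the tetraspanin gene Cd37 at 0.0478. Lyz1 had no neighbour as near, with Eya1, a transcriptional cofactor of organ development, at 0.0628 and the fatty-acid-binding protein gene Fabp5 at 0.116. Eya1 was at 9.34 and 8.56 in cKO and at 9.07 and 7.82 in wt, and thus shared with Lyz1 the lower values of litter 2.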

How the data were processed

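RNA of sorted splenic Esam DC was labelled with biotin and hybridised to Affymetrix ST 1.0 arrays. The values are deposited on a log2 scale, as the authors obtained them by RMA with GC correction in Partek, so that background correction and normalization between arrays precede every value used here. The submitters' processing notes name mm9. Array values carry no read depth, and the number of arrays limits the precision. Of 35399 probe sets, 21789 carried 1 gene symbol in the platform annotation, 1621 carried several and 11989 were not listed there, and 21698 matched a RefSeq gene (GRCm38.p6).

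Probe sets with a log2 value of at least 6.5 on at least 1 array (18889) were tested with limma 3.58.1 in R 4.3.3 (lmFit, eBayes) for cKO less wt in a two-sided test, with Benjamini-Hochberg adjustment over all of them and a threshold of 0.05. A prior of 2.20 degrees of freedom was added to 2 residual ones. The study's thresholds were applied beside it. The procedure was tested on simulated data, where few small changes reached the adjusted threshold. The share that did was 0.1% for a 1.5-fold change and 20.8% for a 2-fold change. For a 4-fold change it was 82%. The fit can thus miss most changes of the size seen in the members. The labels give the littermate pairs, mice of 1 litter deviated together (r = 0.27 across probe sets), and litter as a block was an alternative fit. The litters also differed in Xist and Kdm5d, so this shared deviation cannot be told apart from one between the sexes. No 2 arrays held the same values.

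Named genes were all members, up to 3 genes per direction with the smallest p from each list, and the 2 nearest profiles of members whose values span at least 1.5-fold. The members and lists were chosen with earlier results of these data known. RUNX and Ets motifs were searched on both strands.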

Additional observations from a re-analysis of the deposited data

Results flagged for a closer look

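The within-litter differences of Fn1 ran in opposite directions, 0.16 in litter 1 and -0.09 in litter 2. The difference between litters was not tested, and all 4 Fn1 values were under 6.5.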

How the results depend on the processing

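Over 13 alternatives, 88 of 91 member values kept their direction and their side of the adjusted threshold of 0.05. With 1 array left out, the Lyz1 difference ran between -0.17 and 1.17, the lowest being without wt replicate 2. Leaving out 1 array breaks a littermate pair, so the step between litters enters these values. S100a6 passed limma when it was fitted anew on 1 probe set per gene (adjusted p = 0.0382) or on the mean of a gene's probe sets (adjusted p = 0.0354). In each, 1 member was called, against 0 with all probe sets. Both fits hold fewer features and also estimate the prior anew. The unadjusted limma p of S100a6 was 0.0001389 and 0.0001325 in them, against 0.0004209 in the main fit. With litter as a replicate block, 0 members were called, and the adjusted p was 0.252 for S100a6, 0.294 for Treml4 and 0.297 for Lyz2, so that the block changed no call. The number of members at an unadjusted p under 0.05 was 4 in limma, 2 with the methods' one-way test, and between 2 and 6 with 1 array left out, the lowest without cKO replicate 1. The number past the study's thresholds was 2, and 0 in each fit with 1 array left out, where the one-way test has 1 residual degree of freedom. The median member difference was 0.36, and between 0.184 and 0.456 with 1 array left out. The lone array of a genotype is then assumed to vary like the other group. No scaling alternative changed a member's direction. With no filter on low values, Fn1 differed by 0.04 (limma, adjusted p = 0.976). Values near or under 6.5, as for Fn1, cannot be told from background. The SE of the Lyz1 difference was 0.52, and 0.21 with litter as a block.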
